A study of Mus musculus with 2 samples.

Results

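The genes examined here are 32 mouse genes of cholesterol and fatty acid synthesis, given as a list of symbols: enzymes of the mevalonate pathway, enzymes from squalene to cholesterol, the sterol-sensing regulators, and enzymes that make, elongate and desaturate fatty acids. They were taken from 21935 gene symbols in RNA-Seq data of the mouse embryonic stem (ES) cell line R1, and all 32 symbols were found. R1 ES cells were transduced with a lentivirus and stably selected in puromycin. shLuc ES cells carried a short hairpin RNA (shRNA) against luciferase, which serves as the control, and shKdm5b ES cells carried an shRNA that depletes transcripts of *Kdm5b*, the gene of a demethylase of histone H3 lysine 4. Both had been kept on irradiated mouse embryonic fibroblasts in serum with LIF, the cytokine that sustains self-renewal, and both were then cultured for 72 h without LIF. 1 library of polyadenylated RNA was sequenced from each, so the differences described here have no replicates, and an effect of the shRNA cannot be told apart from a difference between these libraries. In a bulk sample, fewer cells of a type and less RNA per cell cannot be told apart either.

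Cells make cholesterol and fatty acids from acetyl-CoA. The mevalonate pathway joins acetyl-CoA units into farnesyl diphosphate, squalene synthase joins these into squalene, and a chain of enzymes turns squalene into cholesterol, while acetyl-CoA carboxylase and fatty acid synthase make palmitate, which is then elongated and desaturated. Many of these genes are activated by the SREBP transcription factors, which SCAP escorts to the Golgi for cleavage when sterols are low and which INSIG proteins hold in the endoplasmic reticulum when sterols are plentiful. Dividing cells such as ES cells need both products for new membrane.

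The shLuc library had 78172698 mapped reads and the shKdm5b library 72702698, each of 50 bases, and the reads lay at distinct positions for 32.9% of the shLuc reads and 20.1% of the shKdm5b reads. RPKM is the number of reads on a transcript entry scaled to its length and to the reads of the library. *Kdm5b*, the targeted gene, was at 104 RPKM in shLuc and 3.01 RPKM in shKdm5b ES cells, or 2.88% of the control. The 7 ES cell markers had a summed RPKM of 2554 and 2731. In the shKdm5b library 2 were past 1.5-fold lower (28.6%), *Pou5f1* (619 and 182 RPKM) and *Esrrb* (80.5 and 41.2 RPKM). Another 1 was higher (14.3%), *Dppa5a* (1096 and 1651 RPKM, 1.51-fold). Over all genes with an RPKM above 1, 32% were lower and 16.3% higher. The other 4, *Sox2*, *Nanog*, *Zfp42* and *Tdgf1*, were within 1.5-fold. With the corrections described further on, *Esrrb* was within 1.5-fold for GC content (-0.30), and *Dppa5a* for GC content and length (-0.03). Of 10 markers of visceral and definitive endoderm, 7 had an RPKM above 1, each of them in the shLuc library only. All 7 were past 1.5-fold lower in the shKdm5b library, against 32% of all genes with an RPKM above 1. Since these 7 passed the RPKM threshold through the shLuc library, that count was largely fixed in advance. The summed RPKM over all 10 was 2.34 in the shKdm5b library and 19.7 in the shLuc library. *Afp* alone of the 10 was at 0 reads, in the shKdm5b library only. Markers of feeder fibroblasts summed to 5.38 and 6.40 RPKM over 8 genes, with *Thy1* alone above an RPKM of 1, and with *Postn* at 0 reads in the shKdm5b library. Of the 4 neural markers, which summed to 41.6 and 21.6 RPKM, *Tubb3* was lower (36.4 and 14 RPKM), *Nes* was higher (1.78 and 3.24 RPKM), and *Sox1* (1.41 and 2.12 RPKM) and *Pax6* (2.01 and 2.18 RPKM) were within 1.5-fold. The 4 mesoderm markers summed to 0.456 and 0.615 RPKM. Whether these marker differences come from cell composition, and what part composition has in the values of the lipid genes, was not tested.

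Of the 32 genes, 31 had an RPKM above 1 in at least 1 library. These 31 genes had from 662 to 45399 reads in shLuc and from 182 to 28428 reads in shKdm5b ES cells. The widest 95% counting interval of a log2 ratio spanned 0.48. These intervals take every read as independent. Reads at repeated positions were kept, so the intervals are too narrow if such reads are copies of the same fragment, which was not tested. They were well expressed, with a median RPKM of 30 in shLuc and 25.4 in shKdm5b ES cells, against 8.97 and 7.33 for the 11804 genes with an RPKM above 1. The log2 ratio of shKdm5b to shLuc, taken on the log2(RPKM + 0.1) scale, ran from -1.78 for *Fasn* to 1.10 for *Me1*, and was below 0 for 22 genes and above 0 for 9. With a fold change above 1.5 and an RPKM above 1, thresholds that the study combined with a false discovery rate not used here, 9 of the 31 genes (29.0%) were lower in the shKdm5b library, *Mvk*, *Mvd*, *Lss*, *Tm7sf2*, *Srebf1*, *Srebf2*, *Stard4*, *Acaca* and *Fasn*, and 1 gene (3.23%), *Me1*, was higher. Over all 11804 genes, 32% were lower and 16.3% were higher, and 48.3% either, against 10 of the 31 lipid genes, so the share of lower lipid genes was near that of all genes and the share of higher ones was below it. The median log2 ratio was -0.39 for the 31 genes and -0.21 for all genes, and the standard deviation across genes was 0.68 and 0.84.

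**Figure D1:**
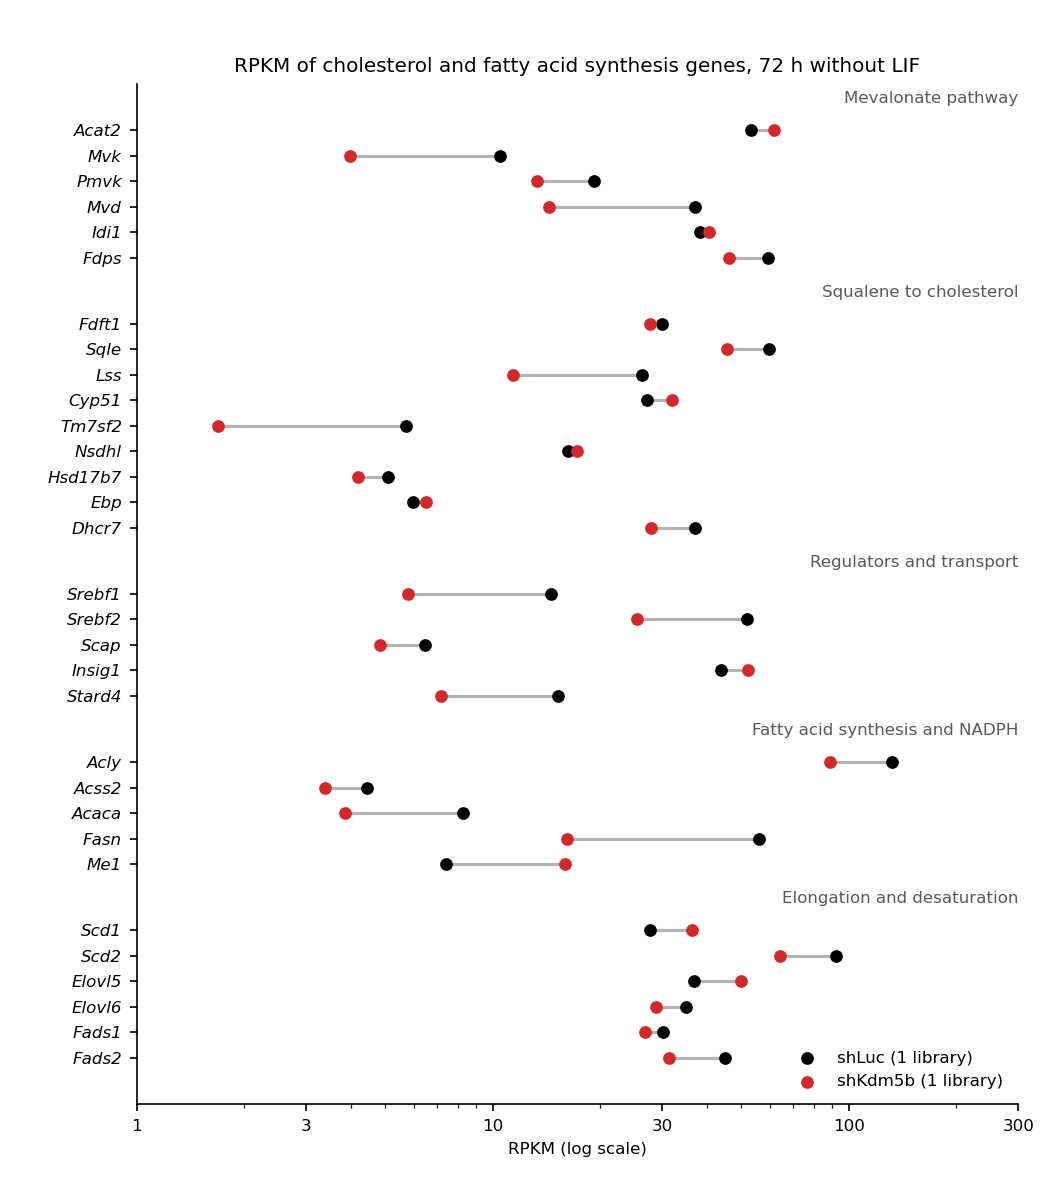
RPKM on a log scale (x axis) of the 31 genes with reads, in the shLuc library (black) and the shKdm5b library (red), with genes grouped by role (y axis) and 1 library per condition. The longest lines to the left are those of *Tm7sf2*, *Fasn*, *Mvk* and *Mvd*, and *Me1* has the longest line to the right.

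In the mevalonate pathway, the kinase and the decarboxylase at its centre were lower in the shKdm5b library, and *Acat2*, *Pmvk*, *Idi1* and *Fdps* were within 1.5-fold. The lower genes were 2 of the 6 with reads (33.3%, against 32% of all genes). Both were within 1.5-fold after the correction for GC content described further on. *Mvk*, mevalonate kinase, was at 10.5 RPKM (1356 reads) in shLuc ES cells and at 3.99 RPKM (481 reads) in shKdm5b ES cells, with a log2 ratio of -1.37 (95% counting interval -1.54 to -1.24). *Mvd*, mevalonate diphosphate decarboxylase, had an RPKM of 37.1 (5112 reads) and 14.4 (1846 reads), a log2 ratio of -1.36 (-1.44 to -1.29). Both genes were thus at a similar share of the control RPKM, 38.1% and 38.8%. *Pmvk*, the phosphomevalonate kinase that acts between them, had an RPKM of 19.3 and 13.3 (log2 ratio -0.53). *Acat2*, the cytosolic thiolase that joins acetyl-CoA units, had an RPKM of 53.3 and 61.7 (log2 ratio 0.21). *Idi1*, isopentenyl diphosphate isomerase, was nearly level at 38.3 and 40.6 RPKM. *Fdps*, farnesyl diphosphate synthase, had an RPKM of 59.2 and 46.2 (log2 ratio -0.36). *Hmgcs1*, which encodes HMG-CoA synthase, was listed at 0 reads in both libraries. Since this enzyme is used by every cell that makes cholesterol, the 0 gives no value for the gene, and its entry also carries the minus strand where GENCODE places the gene on the plus strand, the only such case among the 32 genes.

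Of the 9 enzymes from squalene to cholesterol, 2 were lower in the shKdm5b library (22.2%, against 32% of all genes). *Lss*, lanosterol synthase, which closes the sterol rings, was at 26.3 RPKM (6383 reads) in shLuc ES cells and at 11.4 RPKM (2575 reads) in shKdm5b ES cells, with a log2 ratio of -1.20 (-1.27 to -1.14). *Tm7sf2*, a sterol reductase, had an RPKM of 5.73 (662 reads) and 1.69 (182 reads), a log2 ratio of -1.70 (-2.0 to -1.52), and was the lowest of the 31 genes in the shKdm5b library. The other 7 enzymes of this branch stayed within 1.5-fold. *Fdft1*, squalene synthase, had an RPKM of 30 and 27.7, and *Sqle*, squalene epoxidase, had 59.6 and 45.4. *Cyp51*, lanosterol demethylase, had an RPKM of 27.2 and 32 (log2 ratio 0.23), slightly higher in the shKdm5b library. *Nsdhl* and *Hsd17b7*, which act together in removing methyl groups from the sterol, had log2 ratios of 0.09 and -0.28. *Ebp*, a sterol isomerase, had an RPKM of 5.97 and 6.51, with a counting interval of the log2 ratio from -0.02 to 0.27, the only interval of the 31 that includes 0. *Dhcr7*, the reductase that yields cholesterol, had an RPKM of 37.0 and 27.9 (log2 ratio -0.41). Over the 15 enzymes of sterol synthesis with reads, 4 were lower, 0 were higher and 11 were within 1.5-fold, with a median log2 ratio of -0.36. The 4 lower enzymes were 26.7% of the 15, against 32% of all genes, and 2 of them, *Lss* and *Tm7sf2*, were lower after the correction for GC content described further on.

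Of the regulators, both SREBP genes were lower in the shKdm5b library, and the genes of their escort and their anchor were within 1.5-fold. With *Stard4*, 3 of the 5 genes of this group were lower (60%, against 32% of all genes). After the correction for GC content *Srebf1* (-0.53) and *Srebf2* (-0.27) were within 1.5-fold, and *Stard4* was still lower. *Srebf1*, which encodes the SREBP forms tied mainly to fatty acid synthesis, was at 14.6 RPKM (4895 reads) in shLuc ES cells and at 5.80 RPKM (1812 reads) in shKdm5b ES cells, with a log2 ratio of -1.31 (-1.41 to -1.25). *Srebf2*, which encodes the SREBP tied mainly to cholesterol synthesis, had an RPKM of 51.7 (18482 reads) and 25.4 (8436 reads), a log2 ratio of -1.02 (-1.06 to -0.99). In both libraries *Srebf2* had the higher RPKM of the pair. *Scap* had an RPKM of 6.46 and 4.82 (log2 ratio -0.42). *Insig1*, itself a classical SREBP target, went the other way, with an RPKM of 43.7 (9050 reads) and 52.3 (10068 reads) and a log2 ratio of 0.26 (0.22 to 0.30). *Stard4*, a sterol transport protein and also an SREBP target, had an RPKM of 15.3 (3581 reads) and 7.17 (1556 reads), a log2 ratio of -1.09 (-1.18 to -1.01).

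*Acaca* and *Fasn*, the genes of the 2 enzymes that make palmitate, were lower in the shKdm5b library. They were 40% of the 5 genes of this group, against 32% of all genes, and 20% were higher, against 16.3%. The value of *Acaca* is uncertain because of words shared with another gene, described further on. *Fasn*, fatty acid synthase, was at 56.1 RPKM (43564 reads) in shLuc ES cells and at 16.2 RPKM (11706 reads) in shKdm5b ES cells, with a log2 ratio of -1.78 (-1.82 to -1.76), which leaves 28.9% of the control level. Among the 31 genes ordered by RPKM, *Fasn* went from place 5 to place 18. *Acaca*, acetyl-CoA carboxylase, which supplies malonyl-CoA to fatty acid synthase, had an RPKM of 8.24 (5821 reads) and 3.85 (2527 reads), a log2 ratio of -1.08 (-1.17 to -1.03). The enzymes that supply acetyl-CoA were closer to the control. *Acly*, ATP citrate lyase, had the highest RPKM of the 31 genes in both libraries, 132 and 88.9, and its log2 ratio of -0.57 lay just inside the 1.5-fold threshold, 0.58 on the log2 scale. *Acss2*, which makes acetyl-CoA from acetate, had an RPKM of 4.44 and 3.38. *Me1*, malic enzyme, which supplies NADPH for fatty acid synthesis, was the 1 gene past the threshold in the other direction, with an RPKM of 7.40 (1883 reads) and 16.0 (3777 reads), a log2 ratio of 1.10 (1.03 to 1.19).

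Among the 6 genes of elongation and desaturation, 0 passed the 1.5-fold threshold, where 48.3% of all genes passed it. *Scd1* and *Scd2*, stearoyl-CoA desaturases both encoded on chromosome 19, differed in direction. *Scd1* had an RPKM of 27.7 and 36.3 (log2 ratio 0.39, 0.35 to 0.43), and *Scd2* had 92.3 and 64.3 (log2 ratio -0.52, -0.54 to -0.50). The elongases also differed in direction. *Elovl5*, which acts on polyunsaturated chains, had an RPKM of 36.8 and 49.8 (log2 ratio 0.44), and *Elovl6*, which extends palmitate, had 34.9 and 28.7 (log2 ratio -0.28). The desaturases of polyunsaturated chains, *Fads1* and *Fads2*, had log2 ratios of -0.16 and -0.53. *Fads2* was just inside the threshold, at an RPKM of 45.0 and 31.2. Setting the median over genes with an RPKM above 1 in both libraries to 0 adds 0.17 to every log2 ratio and takes *Elovl5* past 1.5-fold, at 0.60, and TMM or median-of-ratios scaling, which add 0.22 and 0.24, take *Scd1* past it as well. The 9 lower genes were past the threshold under all of these scalings.

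The log2 ratio followed the GC content of the transcripts, across all genes and across these genes. The Spearman correlation with GC content was -0.66 over the 31 genes and -0.53 over 11535 genes, which share the same pair of libraries and are not independent. The 9 lower genes had a median GC content of 57.9% (43.9% to 59.6%), and the 22 others a median of 49.6%. When a curve of the log2 ratio on GC content, fitted over all genes with an RPKM above 1, was taken away, 5 genes were past 1.5-fold lower, *Fasn* (log2 ratio -1.03), *Tm7sf2* (-1.03), *Lss* (-0.82), *Acaca* (-0.93) and *Stard4* (-1.34), and 1 gene was higher, *Me1* (1.09). The background after this correction was 17.7% lower, 18.7% higher and 36.4% either. *Srebf1* (-0.53), *Srebf2* (-0.27), *Mvk* (-0.53) and *Mvd* (-0.53) were within 1.5-fold there. *Stard4*, whose GC content of 43.9% is low among the 31, had a larger log2 ratio in size after the correction, while that of *Srebf2*, at 57.9%, came closest to 0 among the 9 genes. Several genes within 1.5-fold changed sign with the correction, among them *Scap* (0.40), *Pmvk* (0.17), *Fdft1* (0.23), *Fads1* (0.21), *Idi1* (-0.29) and *Nsdhl* (-0.03). *Fdft1* also changed sign with each of the scalings, and *Fads1* with TMM and median-of-ratios scaling. The median of the log2 ratios over these genes was -0.03 after the correction, against -0.02 for all genes. The part of GC content in the differences of the single genes was not tested.

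**Figure D2:**
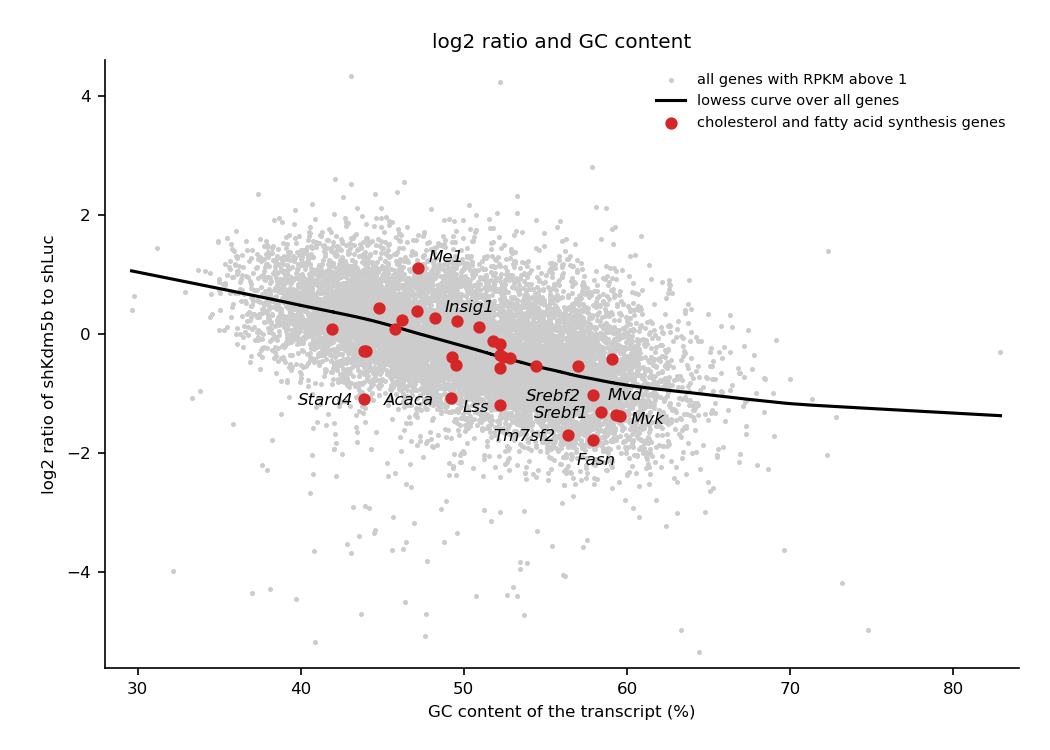
log2 ratio of shKdm5b to shLuc (y axis) against the GC content of the transcript in percent (x axis) for 11535 genes with an RPKM above 1 (grey), with the lowess curve over these genes (black line) and the 31 cholesterol and fatty acid synthesis genes (red). *Stard4*, *Acaca*, *Lss*, *Tm7sf2* and *Fasn* lie furthest below the curve among the red points, *Me1* lies furthest above it, and *Srebf2* lies close to it.

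**Figure D3:**
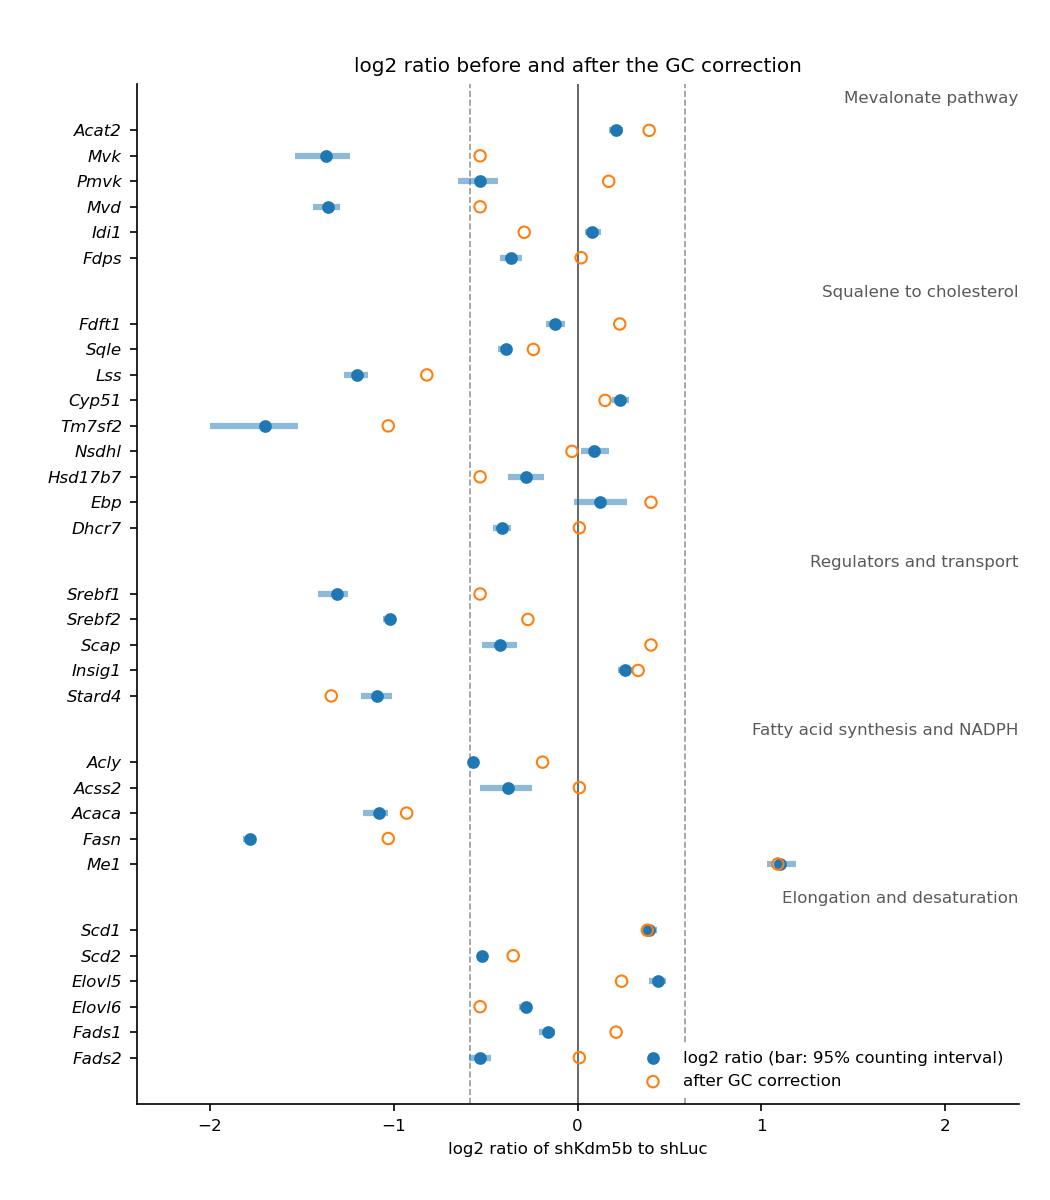
log2 ratio of shKdm5b to shLuc (x axis) for the 31 genes grouped by role (y axis), before the GC correction (filled blue points, with bars for the 95% counting interval) and after it (open orange circles), with dashed lines at a 1.5-fold change. *Mvk*, *Mvd*, *Srebf1* and *Srebf2* move inside the dashed lines after the correction, and *Fasn*, *Tm7sf2*, *Lss*, *Acaca*, *Stard4* and *Me1* stay outside them.

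Several of these genes have near copies, and words of 50 bases, the length of a read, were compared with all GENCODE M21 transcripts on either strand. A shared word can therefore also come from a transcript on the opposite strand, as for *Fdft1* with *Ctsb*. For 17 of the 32 genes some words also occurred in a transcript of another gene. The share was 82.0% for *Fdps*, 55.4% for *Acaca* (with *Gm5182*), 45.9% for *Acat2* (with *Acat3*, a neighbouring thiolase gene), 33.4% for *Me1*, 30.7% for *Fdft1* and 30.5% for *Idi1*. The values of these 6 genes are uncertain, because the counting rule for such reads is not given in the sources used here. *Scd1* and *Scd2* shared 4.66% and 4.01% of their words with other transcripts, and for *Mvk*, *Mvd*, *Fasn*, *Srebf2*, *Stard4* and *Tm7sf2* the share was 0%. In the GENCODE M21 annotation of GRCm38, *Mvk* lies on chromosome 5 from 114444269 to 114460591, *Mvd* on chromosome 8 from 122433601 to 122443422, *Lss* on chromosome 10 from 76531588 to 76557138 and *Tm7sf2* on chromosome 19 from 6062821 to 6068373. *Srebf1* lies on chromosome 11 from 60199089 to 60222581, *Acaca* on chromosome 11 from 84129672 to 84401651 and *Fasn* on chromosome 11 from 120805846 to 120824547. *Srebf2* lies on chromosome 15 from 82147181 to 82205379 and *Me1* on chromosome 9 from 86581371 to 86695953. The deposited reads were mapped to mm8, so the coordinates say where a gene is in GRCm38 and not where its reads were placed.

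SREBP works at promoters together with NF-Y, which binds the CCAAT box, and with SP1, which binds GC boxes. RefSeq promoter windows of GRCm38.p6, from 250 bases before to 50 bases after each start, were found for 25 of the 32 genes (32 windows). The letters CCAAT on either strand occurred in 21 of the 32 windows (65.6%) and in 37.4% of all 32817 windows, the GC box GGGCGG in 23 (71.9%) and in 35.6%, the E-box CACGTG in 6 (18.8%) and in 7.15%, and the letters TCACNCCAC of a sterol regulatory element in 1 (3.12%), that of *Hmgcs1*, and in 1.24%. The set of all windows includes genes not expressed here and was not matched on expression or GC content. Whether the higher shares are tied to SREBP was therefore not tested. None of these motifs contains another, and CCAAT matches on opposite strands can overlap. These are matches of letters and not sites, and no match says only that these letters are not in this window. Among genes with reads and a window, 7 of 19 with CCAAT and 1 of 5 without were past 1.5-fold lower, with median log2 ratios of -0.41 and -0.42. Over all genes 32% were lower.

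The windows of a pair of lower genes, *Fasn* and *Mvk*, and of a pair within 1.5-fold, *Insig1* and *Idi1*, are printed 5′ to 3′ to show that CCAAT letters stand in both kinds. CCAAT, or ATTGG where it lies on the other strand, and CACGTG are in capitals. The windows are chr11:120824498-120824797 on the minus strand for *Fasn*, chr5:114444019-114444318 on the plus strand for *Mvk*, chr5:28071162-28071461 on the plus strand for *Insig1* and chr13:8885356-8885655 on the plus strand for *Idi1*.
Fasn: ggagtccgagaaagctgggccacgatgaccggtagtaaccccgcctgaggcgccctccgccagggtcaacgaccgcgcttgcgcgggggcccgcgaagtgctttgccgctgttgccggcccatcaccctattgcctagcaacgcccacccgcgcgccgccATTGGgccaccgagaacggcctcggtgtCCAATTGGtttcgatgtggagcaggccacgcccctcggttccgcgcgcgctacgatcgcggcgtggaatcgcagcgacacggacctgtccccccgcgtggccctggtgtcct
Mvk: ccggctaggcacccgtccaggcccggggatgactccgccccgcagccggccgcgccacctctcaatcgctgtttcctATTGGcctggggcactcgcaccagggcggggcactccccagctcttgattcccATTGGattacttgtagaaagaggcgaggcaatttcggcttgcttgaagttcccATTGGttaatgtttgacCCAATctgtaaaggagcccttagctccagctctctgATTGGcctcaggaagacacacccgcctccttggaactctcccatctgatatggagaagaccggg
Insig1: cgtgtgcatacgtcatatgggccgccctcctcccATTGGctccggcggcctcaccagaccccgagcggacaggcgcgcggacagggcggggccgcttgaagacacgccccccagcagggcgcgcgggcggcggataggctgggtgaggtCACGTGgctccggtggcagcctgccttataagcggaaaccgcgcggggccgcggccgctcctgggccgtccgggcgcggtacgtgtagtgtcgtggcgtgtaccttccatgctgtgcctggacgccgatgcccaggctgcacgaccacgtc
Idi1: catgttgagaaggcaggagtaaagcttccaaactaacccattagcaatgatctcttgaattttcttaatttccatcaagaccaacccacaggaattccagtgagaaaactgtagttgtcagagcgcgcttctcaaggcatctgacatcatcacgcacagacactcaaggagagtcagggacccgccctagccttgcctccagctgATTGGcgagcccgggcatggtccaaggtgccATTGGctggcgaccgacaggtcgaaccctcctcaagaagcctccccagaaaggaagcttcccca

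*Mvk* has 5 CCAAT matches and *Fasn* has 3, of which a pair overlaps, while *Idi1* has 2 and *Insig1* has 1 beside its E-box. Of the 5 genes with reads and an E-box in a window, which are *Dhcr7*, *Elovl5*, *Hsd17b7*, *Insig1* and *Scap*, 0 were past the threshold. Over all genes 48.3% were past it, and 5 genes are too few to read the count as a trait of the E-box.

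Lipid genes outside these 32 were described from 6 lists. Of 8 other sterol genes with an RPKM above 1, 2 were lower (25%, against 32% of all genes). *Mbtps1*, which encodes the protease that first cleaves SREBP, was among them (57.7 and 25.9 RPKM, log2 ratio -1.15). In the same list 1 gene was higher, *Acat3*, which shares words with *Acat2* (69.1 and 131 RPKM, log2 ratio 0.92), and 5 were within 1.5-fold. *Sc4mol*, a sterol methyl oxidase, was among the latter, at 93.2 and 97.2 RPKM. The median log2 ratio of this list was 0.21, and it changed sign to -0.11 after the GC correction, with 1 gene higher and 1 lower. Of 8 genes of sterol export and its control, 2 were lower (25%, also below the share of all genes) and 0 higher. The lower genes were *Nr1h2*, which encodes the oxysterol receptor LXR beta (33.2 and 10.9 RPKM, log2 ratio -1.60), and *Osbp*, an oxysterol-binding protein (12.8 and 6.87 RPKM, log2 ratio -0.88). After the GC correction both were still lower and 2 genes were higher, *Abcg1* (0.79) and *Npc2* (0.81), and the median of this list went from -0.01 to 0.29.

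Genes that store or burn fatty acids were also compared. Of 15 glycerolipid genes, 9 were lower (60.0%, against 32% of all genes) and 1 was higher, with a median log2 ratio of -0.73. *Dgat1*, which makes triglyceride, was the lowest of them (5.16 and 0.956 RPKM, log2 ratio -2.32), followed by *Agpat2*, an acyltransferase (8.21 and 2.07 RPKM, log2 ratio -1.94), and *Lpin1*, a phosphatidate phosphatase, was higher (5.04 and 8.13 RPKM, log2 ratio 0.68). After the GC correction 4 of the 15 were lower and 1 was higher, where 17.7% of all genes were lower. Of 16 genes of fatty acid oxidation, 5 were lower (31.2%, near the share of all genes) and 2 were higher, with a median log2 ratio of -0.32. After the GC correction 1 was lower and 4 were higher, with a median of 0.09. The acyl-CoA dehydrogenases differed in direction, with *Acads* (13.3 and 3.91 RPKM, log2 ratio -1.75) and *Acadvl* (4.79 and 2.35 RPKM, log2 ratio -1.0) lower and *Acadl* (14.1 and 29.4 RPKM, log2 ratio 1.06) and *Acadm* (18.7 and 33.9 RPKM, log2 ratio 0.85) higher. After the GC correction *Acadvl* was within 1.5-fold (-0.50). Of 16 genes that activate, carry or extend acyl chains or support their synthesis, 4 were lower (25%) and 3 higher (18.8%). Over all genes 32% were lower and 16.3% higher. *Acacb*, the second acetyl-CoA carboxylase gene, was lower as *Acaca* was (3.21 and 0.811 RPKM, log2 ratio -1.86), and so was *Slc25a1*, the citrate carrier that feeds *Acly* (41.5 and 21.4 RPKM, log2 ratio -0.95). *Fabp3*, a fatty acid-binding protein (10.3 and 24.2 RPKM, log2 ratio 1.23), and *Acsl3*, an acyl-CoA synthetase (21.5 and 35.6 RPKM, log2 ratio 0.72), were higher. After the GC correction 3 genes of this list were lower and 2 higher, and *Slc25a1* (-0.14) and *Acsl3* (0.43) were within 1.5-fold. Of 8 other genes of NADPH supply, 4 were lower (50%, against 32% of all genes) and 0 higher, and 0 were past the threshold after the GC correction. Among the lower genes were *Pgls* (39.8 and 15.8 RPKM, log2 ratio -1.33) and *Pgd* (50.4 and 25.5 RPKM, log2 ratio -0.98) of the pentose phosphate pathway. *Me2*, the mitochondrial malic enzyme gene, was at 42.8 and 42.7 RPKM while *Me1* was past the threshold.

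**Figure D4:**
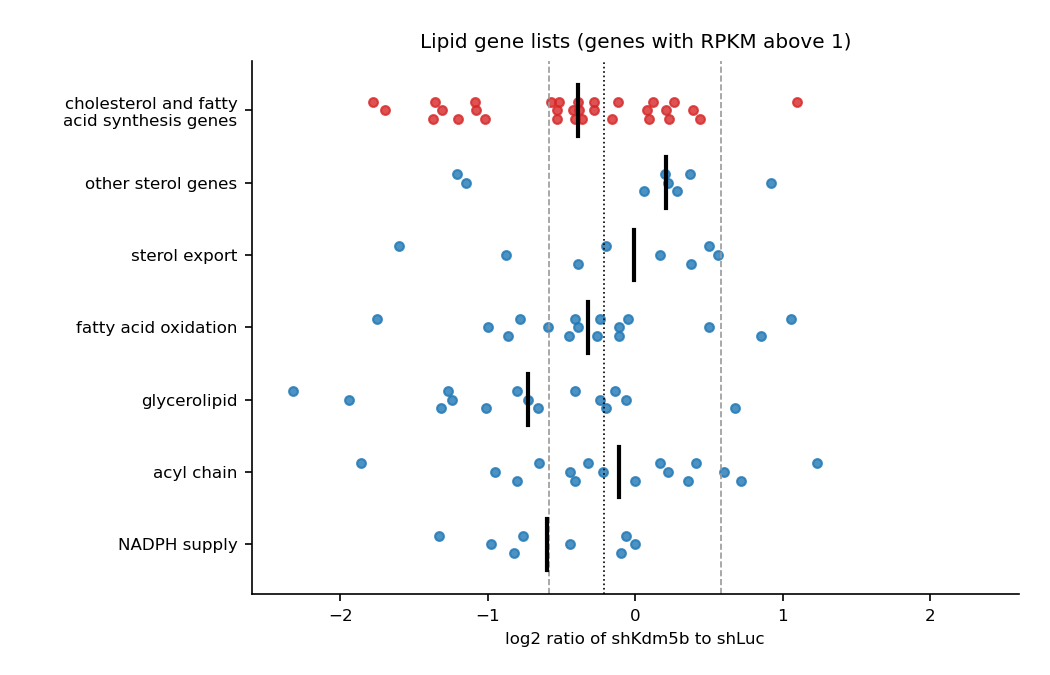
log2 ratio of shKdm5b to shLuc (x axis) of each gene with an RPKM above 1 in the 31 cholesterol and fatty acid synthesis genes (red) and in 6 other lists of lipid genes (blue, y axis), with black bars at the median of each list, dashed lines at a 1.5-fold change and a dotted line at the median of all genes, -0.21. The medians, before the GC correction, run from -0.73 for the glycerolipid genes to 0.21 for the other sterol genes, where the latter becomes -0.11 after it.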

How the data were processed

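RNA-Seq of polyadenylated RNA was analysed from 1 shLuc and 1 shKdm5b library. Per the labels, CASAVA 1.0 and Bowtie 0.12.7 were used with mm8. The authors deposited, for each of 27405 RefSeq transcript entries, a read count and the RPKM normalized to entry length and library reads, together with the mapped reads. The counting program is not given in the sources used here. For each symbol the entry with the largest mean of both RPKM values was used (5 of the 32 genes had several), and reads were counted as deposited, positions with repeated reads included.

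The log2 ratio used a pseudocount of 0.1 RPKM, which understates the change of low genes. A gene passed with a fold change above 1.5 and with either RPKM above 1. 95% intervals are exact Clopper-Pearson intervals on the reads of a gene, repeated positions included, and cover counting error of independent reads only. A replicate test could not be made. As alternatives, edgeR 4.0.16 (exact test at assumed dispersions of 0 and 0.04, FDR below 0.001, R 4.3.3, which compare the libraries and not the conditions), TMM and DESeq2 1.42.0 scaling, other pseudocounts and thresholds, and corrections for GC content and length were used. GC content came from GENCODE M21 transcripts of the same accession, which matched 97.1% of symbols, and its lowess curve used a fraction of 0.3 (statsmodels 0.14.6). The steps were run on simulated counts that held counting error only, with and without a GC effect. Those counts had no repeated reads and no spread between libraries, so they cannot vouch for the intervals or calls in that respect. The genes, their 5 groups by role, the 6 other lists and the markers were chosen with earlier results of these data known, and the named genes are all of the 32 plus, per other list, up to 2 with the highest and 2 with the lowest log2 ratio past the thresholds, of which 1 is not reported here. *Sc4mol*, *Me2*, *Abcg1*, *Npc2* and the single marker genes were named after their values were seen. Calculations ran in SciPy 1.17.1, NumPy 2.4.6, pandas 2.3.3 and Python 3.11.15.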

Additional observations from a re-analysis of the deposited data

How the results depend on the processing

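No paired analysis was possible because shLuc and shKdm5b ES cells have 1 library each, and no replicate could be left out. Of the 31 genes, 10 passed the thresholds (1 higher, 9 lower), and from 7 to 12 passed under other pseudocounts, all scalings, summed entries, other RPKM or fold change thresholds, the exact test at dispersion 0 and the GC and length correction. With the GC correction 6 passed (1 higher, 5 lower), and with the exact test at dispersion 0.04 0 passed, against 284 of all genes (111 higher, 173 lower). Without replicates the dispersion is unknown. The 5 genes lower after the GC correction were also lower after the GC and length correction, where *Mvk* (-0.65) and *Mvd* (-0.63) were lower too. With RPKM above 11, *Mvk*, *Tm7sf2* and *Acaca* were not counted, since they do not reach it. For these genes the median log2 ratio of -0.39 was -0.23 after scaling to a median of 0, -0.17 with TMM, -0.16 with median-of-ratios factors, -0.03 with the GC correction and -0.16 with the GC and length correction, and kept its sign throughout. Over all genes, 5702 passed (1921 higher, 3781 lower), and 2678 with RPKM above 11, 2688 with a fold change above 2 and 3638 with the GC and length correction (1772 higher, 1866 lower). Scaling to a median of 0 gave 2587 higher and 2997 lower, TMM 2828 and 2733, median-of-ratios factors 2909 and 2661, and the GC correction 2158 and 2043.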

Other observations

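Ratios between related genes within a library do not depend on how the libraries are scaled. The ratio of *Scd1* to *Scd2* RPKM was 0.3 in shLuc and 0.565 in shKdm5b ES cells, and that of *Elovl5* to *Elovl6* was 1.05 and 1.74. The difference of their log2 ratios was 0.91 for the desaturase pair and 0.72 for the elongase pair, and 0.73 and 0.78 after the GC correction. The ratio of *Fasn* to *Acly*, the enzymes that use and supply acetyl-CoA for palmitate, was 0.425 and 0.182, and the difference of their log2 ratios went from -1.21 to -0.84 with the GC correction. The ratio of *Acat3* to *Acat2*, which share part of their words, was 1.3 and 2.13, with a difference of 0.71, and 0.72 after the correction. *Srebf1* to *Srebf2* was 0.282 and 0.228 (-0.29, and -0.26 after the correction), and *Fads1* to *Fads2* was 0.667 and 0.86 (0.36, and 0.20 after it). The pairs were chosen after their values were seen, and with 1 library per condition they have no replicate check.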
